A study of Mus musculus with 2 samples.

Results

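Venous endothelial cells were studied in the striatum of adult mice as 258 barcodes, 141 in library 1 and 117 in library 2, out of 12415 barcodes in all. A barcode marks the RNA of 1 droplet, in most cases 1 cell, and a unique molecular identifier (UMI) marks 1 captured mRNA molecule. A barcode was taken when it had at least 300 detected genes and at least 1 UMI for 4 or more of 7 endothelial genes (*Cldn5*, *Flt1*, *Ly6c1*, *Slco1a4*, *Itm2a*, *Pglyrp1*, *Adgrl4*). It also had to hold a UMI for 2 or more of 5 venous genes (*Slc38a5*, *Vwf*, *Icam1*, *Vcam1*, *Lrg1*) and for fewer than 2 of 5 arterial genes (*Gkn3*, *Bmx*, *Sema3g*, *Vegfc*, *Mgp*). The first list alone gave 1552 endothelial barcodes, 870 in library 1 and 682 in library 2. The main comparison group was the 684 endothelial barcodes with none of the 5 venous genes, 432 in library 1 and 252 in library 2, called comparison barcodes here. Another 555 endothelial barcodes held exactly 1 venous gene, and 127 were arterial by a rule of the same form, with 2 or more arterial and fewer than 2 venous genes.

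The study profiled dissociated striatal cells by single-cell RNA-seq on the 10x Genomics platform to ask how astrocytes of a defined brain region differ. The 2 libraries are replicates of 1 untreated condition, labelled as brain tissue enriched for glia from mice aged 8 to 10 weeks. The paper's methods name male mice of a younger age range. The strain is given as C57/Bl6J among the labels and as C57BL/6NTac in their protocol text. Tissue was digested with pronase, filtered and cleared of myelin debris before capture with 3′ kits v2 and v3, and no label says which kit made which library or whether the libraries came from separate animals. The paper states that several adult mice were profiled and that its replicates were biological, without naming the mice of each library. P-values therefore measure how far the differences between groups vary from library to library, and that spread may be technical.

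Brain endothelium changes along the vessel from arteriole through capillary to venule. Venules are the segment where leukocytes attach and cross, helped by adhesion molecules such as *Icam1* and *Vcam1*, and where the transcription factor *Nr2f2* (COUP-TFII) maintains venous identity by restraining Notch signalling, the pathway that with *Efnb2*, *Hey1* and *Sox17* marks arteries. Capillaries carry most of the transporters of the blood–brain barrier, and genes change gradually between capillary and vein.

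The venous barcodes were deeper than the comparison barcodes and near the arterial ones. Their median was 6290 UMIs in library 1 and 6529 in library 2, against 1986.5 and 2608 in comparison barcodes, 4080 and 3815 in those with 1 venous gene, and 6535 and 5894.5 in arterial barcodes. The middle 80% of venous barcodes ran from 2125 to 17212 UMIs in library 1 and from 2491 to 21765 in library 2, as the plot of UMIs per barcode shows. A rule that asks for 2 detected genes favours deep barcodes, so levels were compared as counts per 1000000 UMIs (CPM) of each library's summed barcodes, and shares of barcodes were also taken after thinning every barcode to 2000 UMIs. The sums held 1266158 and 1115147 UMIs for venous barcodes and 1699575 and 889050 for comparison barcodes. A count of 0 in a venous sum allows a level of up to 2.37 CPM in library 1 and 2.69 in library 2, where limits and intervals here cover counting error only.

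**Figure D1:**
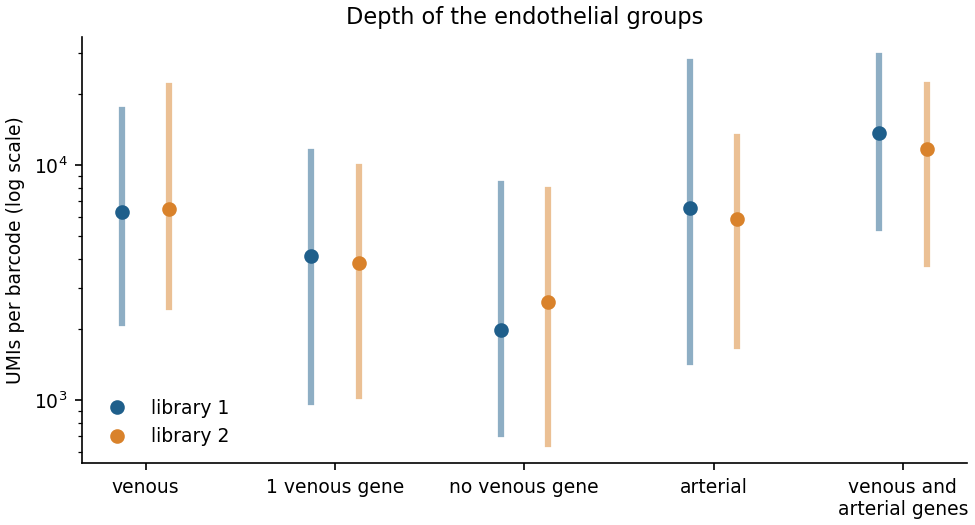
UMIs per barcode (log axis) in the 5 endothelial groups of library 1 (blue) and library 2 (orange). Points are medians and bars cover the middle 80% of barcodes, from percentile 10 to percentile 90. Venous barcodes have medians of 6290 and 6529, above the comparison barcodes with no venous gene at 1986.5 and 2608.

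Venous barcodes made up a similar part of the endothelium in both libraries. The share was 16.2% in library 1 (exact binomial 95% confidence interval 13.8–18.8%) and 17.2% in library 2 (14.4–20.2%), a mean of 16.7% ± 0.671 (SD, n = 2 libraries). When barcodes were thinned before the rule was applied, 57 of 533 in library 1 (10.7%) and 53 of 491 in library 2 (10.8%) met it. Asking for 3 or more venous genes left 38 and 32 barcodes. Scrublet marked 9 venous barcodes of library 1 (6.38%) and 13 of library 2 (11.1%) as doublets. The share was 2.55% and 6.75% in comparison barcodes and 1.39% and 2.96% in all barcodes. None of the 258 carried a barcode sequence found in both libraries, of which there were 9 in all.

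The genes of the rule describe how the venous barcodes were chosen and are given here without a test. *Slc38a5*, a glutamine transporter of brain endothelium, had a UMI in 93.6% of venous barcodes of library 1 and 99.1% of library 2, at 510 and 682 CPM. *Vwf*, the von Willebrand factor that tethers platelets, was found in 73.0% and 82.1%, at 250 and 266 CPM. The adhesion molecule *Icam1* was found in 44.7% and 25.6%, and *Vcam1* in 22.7% and 27.4%. These shares show that *Slc38a5* with *Vwf* was the usual way into the group, and 60 barcodes of library 1 and 64 of library 2 held exactly that pair. *Lrg1*, a secreted glycoprotein induced in inflamed venules, added almost nothing, with 2 barcodes in library 1 and 0 in library 2, where a count of 0 allows 2.69 CPM. Most venous barcodes stood just inside the threshold, with 103 and 85 of them holding exactly 2 venous genes. Just outside it, 244 and 251 barcodes held 1 venous gene and fewer than 2 arterial genes, at 85.4 and 77.0 CPM of *Nr2f2* against 80.0 and 129 in those with exactly 2. On the arterial side, 7 and 10 endothelial barcodes with 2 or more venous genes were left out for holding exactly 2 arterial genes. On the endothelial side, 2 barcodes of library 1 and 0 of library 2 stopped at 3 endothelial genes.

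The venous genes differed in how far other cells carried them. At least 2 of the 5 were found in 10 of 861 microglial barcodes of library 1 (1.16%) and 10 of 990 of library 2 (1.01%), at median depths of 6279 and 5428 UMIs. *Icam1* had a UMI in 24.0% and 27.9% of those barcodes, or 11.1% and 12.996% after thinning, and *Vcam1* in 48.5% and 54.2% of astrocyte barcodes of libraries 1 and 2, so both were also counted outside the endothelium.

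Each venous gene could be tested by choosing barcodes with the other 4. With *Slc38a5* taken out of the rule, its level was 576 CPM in library 1 and 694 in library 2 in the barcodes chosen by the rest, against 137 and 305 in barcodes with none of the rest (log2 fold change 1.62, SE 0.178, edgeR quasi-likelihood adjusted p = 0.00153). *Vwf* was at 221 and 244 against 46.9 and 92.1 CPM (log2 fold change 1.80, SE 0.211, edgeR adjusted p = 0.00256). *Icam1* was at 62.1 and 62.0 against 12.9 and 18.2 (2.00, SE 0.299, edgeR adjusted p = 0.00237). In all 3 cases the chosen barcodes of both libraries lay above the others. *Vcam1* behaved likewise, at 63.8 and 113 against 12.3 and 31.7 CPM (2.05, SE 0.286, edgeR adjusted p = 1.36e-05), and *Lrg1* was too low to test. Each of the 4 tested genes was thus higher in barcodes that were chosen without it. These fits were not repeated at matched depth or without barcodes that held markers of another cell class. The part of depth and of RNA from other cells in them was therefore not tested.

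In the full comparison of venous with comparison barcodes, 217 of 10720 genes outside the rule rose and 196 fell (edgeR quasi-likelihood test blocked by library, Benjamini-Hochberg adjusted p under 0.05). The share called was 2.02% higher, 1.83% lower and 3.85% either way. Of the 413 called genes, 411 moved the same way in both libraries and 384 did not overlap between the groups. A call favours genes that do both, so these counts describe the calls and are no separate support. The same counts over all genes tested are not given. The barcodes with 1 venous gene lay between the groups in both libraries for 285 of them. Only 16 genes passed without the library block, 8 in each direction, and DESeq2 called 83. List counts under other settings stand beside the following counts over all genes. With UMI totals matched between the groups, 263 of 9887 genes rose and 359 fell. Without barcodes that held 3 or more markers of another class, 130 of 6778 rose and 185 fell. Thinned before the rule, 56 of 6944 rose and 50 fell.

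Venous genes outside the rule rose. Of 16 listed, 10 were high enough to test, 7 rose and none fell, against 2.02% of all genes rising, and their median log2 fold change was 1.58 where that of all genes was 0.0047. *Nr2f2* (ENSMUSG00000030551, mm10 chr7:70351944-70366735, minus strand), the transcription factor of venous identity, was at 133 CPM in library 1 and 155 in library 2 against 18.2 and 43.9 in comparison barcodes (log2 fold change 2.30, SE 0.238, edgeR adjusted p = 0.000547). Both venous values lay above both comparison values. *Nr2f2* was also high in mural barcodes, at 504 and 497 CPM, and without the barcodes that held 3 or more markers of another cell class, called mixed barcodes here, the log2 fold change was 2.74.

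Other venous genes that rose have varied roles. *Tmsb10*, an actin-binding thymosin, was at 2591 CPM in library 1 and 2630.15 in library 2 against 905 and 649 in comparison barcodes (log2 fold change 1.78, edgeR adjusted p = 0.000154). *Il1r1* (mm10 chr1:40225080-40317257, plus strand), the receptor through which interleukin-1 acts on brain endothelium, was at 98.7 and 37.7 against 10.6 and 9.00 CPM (2.69, SE 0.304, edgeR adjusted p = 0.000594). Its venous levels differed between the libraries more than those of *Nr2f2*, yet both lay above the comparison values. *Ctsc*, the protease cathepsin C, was at 94.8 and 144 against 22.9 and 50.6 CPM (1.75, edgeR adjusted p = 0.000594). The VEGF co-receptor *Nrp2* rose less (log2 fold change 1.32), as did the carboxypeptidase *Prcp* (1.06), and neither passed when barcodes were thinned before the rule (0.74 and 0.91). Of the 9 venous genes testable there 5 rose.

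Some genes known from larger and inflamed veins were at or near 0. *Selp* and *Sele*, the selectins on which leukocytes roll, had no UMI in either venous sum. *Ackr1*, the chemokine receptor of post-capillary venules, had 1 UMI in library 1 and 0 in library 2, and *Plvap*, found in fenestrated endothelium, also had 1 and 0. *Ch25h* was low, at 5.53 and 6.28 CPM. *Lcn2*, a lipocalin of inflamed endothelium, differed between the libraries, at 26.9 and 6.28 CPM against 4.12 and 0 in comparison barcodes. *Ephb4*, the venous receptor of ephrin-B2, was tested and gave 47.4 and 56.5 against 47.7 and 39.4 CPM (log2 fold change 0.24, edgeR adjusted p = 0.596), and *Flt4* and *Aplnr* did not pass either. With UMI totals matched *Flt4* did pass as higher. The label of these barcodes as venous is thus borne by *Nr2f2* and the genes above, and not by the selectins or *Ackr1*. Since the capillary gene *Car4* was also higher in them, the values do not tell whether they are venous or stand between capillary and vein, and venous here names the barcodes the rule chose.

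The largest rises over all genes lay mostly outside the venous list. *F5* (mm10 chr1:164151838-164220277, plus strand), coagulation factor V, stood first at 74.2 CPM in library 1 and 77.1 in library 2 against 4.71 and 0 in comparison barcodes, where a count of 0 allows 3.37 CPM (log2 fold change 4.11, SE 0.432, edgeR adjusted p = 0.000371). It was spread over 36 and 33 venous barcodes, with at most 9.57% of its UMIs in 1 barcode, and microglial and mural barcodes held no UMI of it in either library. *Bst1* (mm10 chr5:43818885-43843986, plus strand), a cell-surface enzyme also called CD157, followed with 27 UMIs in each venous sum against 2 and 0. Over both libraries together that is 29.4-fold (95% counting interval 7.74–249, edgeR adjusted p = 0.00503). *Wnt5a*, a Wnt ligand, was at 63.2 and 64.6 against 11.2 and 6.75 CPM (log2 fold change 2.60, SE 0.272, edgeR adjusted p = 0.000498). In all 3 genes the venous levels of the libraries lay close together, and no venous value fell among the comparison values. Thinned before the rule, *Wnt5a* did not pass (1.72, edgeR adjusted p = 0.0908) and *Bst1* was too low to test.

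*Flrt2*, an adhesion and guidance protein, was at 90.04 CPM in library 1 and 149 in library 2 against 21.2 and 27.0 in comparison barcodes (log2 fold change 2.22, SE 0.184, edgeR adjusted p = 0.000154). It was clear of the comparison values in each library.

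Another 3 of the 10 largest rises rested largely on few barcodes. *Lyz2*, the lysozyme of myeloid cells, was at 175 and 35.9 against 12.9 and 15.7 CPM (log2 fold change 2.59, edgeR adjusted p = 0.00379), and 113 of its 221 venous UMIs in library 1 and 39 of 40 in library 2 came from 1 barcode. It did not pass when thinned before the rule (0.94, edgeR adjusted p = 0.733). *Spp1*, osteopontin, was at 54.5 and 48.4 against 4.12 and 3.37 CPM (3.40, edgeR adjusted p = 0.000404), with 85.5% and 79.6% of its UMIs in 3 barcodes. *Igf2*, insulin-like growth factor 2, was at 69.5 and 51.1 against 5.30 and 12.4 CPM (2.73, edgeR adjusted p = 0.00204), with 60.2% of its UMIs in library 1 and 26.3% in library 2 from 1 barcode. These levels rest on fewer barcodes than *Nr2f2*, which was found in 53 and 54 venous barcodes with at most 9.47% of its UMIs in 1 of them. *Il1r1* lay between, in 50 barcodes of library 1 and 20 of library 2, with 7.20% and 21.4% of its UMIs in the highest.

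**Figure D2:**
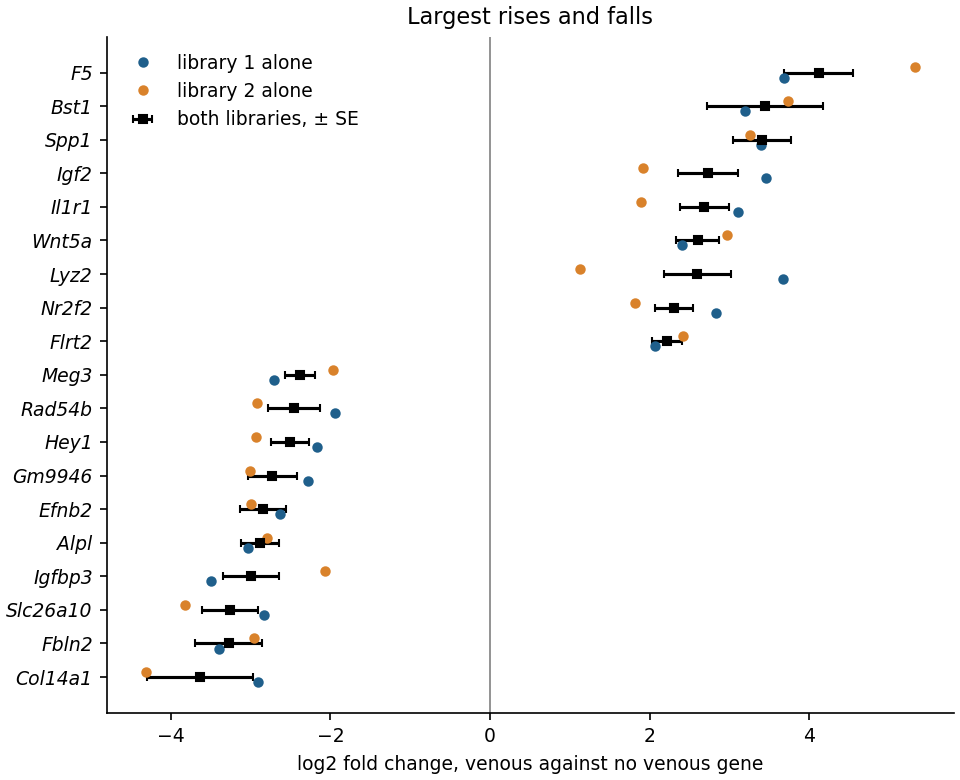
Log2 fold change of venous against comparison barcodes for 9 of the 10 genes that rose most and the 10 that fell most, by the naming rule. Black squares are the fit over both libraries ± SE, and circles are library 1 (blue) and library 2 (orange) alone. All 19 genes lie on the same side of 0 in both libraries, from *F5* at 4.11 to *Col14a1* at -3.64 over both.

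Genes of the capillary and the capillary-venous segment moved in both directions. Of 14 tested, 5 rose and 1 fell, beside 2.02% of all genes higher and 1.83% lower, with a median log2 fold change of 0.18. *Car4*, the membrane carbonic anhydrase of brain capillaries, was at 1569 CPM in library 1 and 1359 in library 2 against 525 and 539 (1.49, SE 0.104, edgeR adjusted p = 0.000125, and 0.98 when thinned before the rule). *Slc16a1*, the monocarboxylate transporter MCT1, was at 311 and 475 against 127 and 242 CPM (1.16, edgeR adjusted p = 0.000594), and *Itih5*, a hyaluronan-binding protein, at 717 and 1058 against 351 and 506 (1.08, edgeR adjusted p = 0.000283). All 3 were higher in the venous barcodes of each library. The amino acid transporters *Slc7a1* (0.71) and *Slc7a5* (0.45) rose less. Without mixed barcodes 4 of the 14 rose and 4 fell, with a median of -0.083, beside 130 higher and 185 lower of all 6778 genes tested. Thinned before the rule 4 rose and 2 fell, with a median of 0.03, beside 56 higher and 50 lower of 6944. With UMI totals matched 7 rose and 1 fell, with a median of 0.54, beside 263 higher and 359 lower of 9887.

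The gene of this list that fell was *Cxcl12* (mm10 chr6:117168535-117181367, plus strand), the chemokine that binds CXCR4. Its level was 761 CPM in library 1 and 831 in library 2 against 2388 and 3050 (log2 fold change -1.73, SE 0.106, edgeR adjusted p = 8.95e-05) and it was lower in the venous barcodes of each library. *Mfsd2a*, the lipid transporter that keeps transcytosis low at the barrier, gave 421 and 287 against 438 and 430 CPM (log2 fold change -0.28, edgeR adjusted p = 0.311). It was lower without mixed barcodes (-0.46, edgeR adjusted p = 0.0157). The transferrin receptor *Tfrc* gave 0.35 (edgeR adjusted p = 0.142) and rose with UMI totals matched (0.71, edgeR adjusted p = 0.00768).

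Arterial genes fell. Of 16 tested outside the rule, 9 fell and none rose, against 1.83% of all genes falling, with a median log2 fold change of -0.71. *Efnb2*, the arterial ephrin, was at 6.32 CPM in library 1 and 6.28 in library 2 against 47.7 and 65.2 (log2 fold change -2.85, SE 0.286, edgeR adjusted p = 0.000364). *Hey1*, a Notch target, was at 18.2 and 9.86 against 88.8 and 91.1 CPM (-2.50, SE 0.237, edgeR adjusted p = 0.000339), and *Alpl*, tissue-nonspecific alkaline phosphatase, at 7.11 and 18.8 against 70.02 and 146 (-2.88, SE 0.237, edgeR adjusted p = 0.000154). None of the venous values reached the comparison values. Thinned before the rule, *Alpl* did not pass (-1.08, edgeR adjusted p = 0.315), and 6 of 14 arterial genes fell. The guidance receptor *Unc5b* (-1.73), the glutamine synthetase *Glul* (-1.02), the tetraspanin relative *Tm4sf1* (-0.80) and the transcription factor *Sox17* (-0.51) fell by less. *Stmn2* (-2.28) is also a marker of neuroblasts, and its log2 fold change was -0.81 (edgeR adjusted p = 0.243) once barcodes with 3 or more markers of another class were left out.

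The comparison barcodes include arterial ones, since the rule for them does not ask about arterial genes, so the falls describe the distance of venous barcodes from a mixture of capillary and arterial endothelium. With the arterial barcodes taken out of the comparison, 157 genes rose and 151 fell.

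Of the 10 largest falls, 7 lay outside the arterial list. *Fbln2*, the matrix protein fibulin-2, was at 2.37 CPM in library 1 and 1.79 in library 2 against 38.8 and 28.1 (log2 fold change -3.28, SE 0.424, edgeR adjusted p = 0.000608). *Col14a1*, a collagen, had 2 and 0 UMIs in the venous sums against 70 UMIs in the comparison sums, which over both libraries is 32.2-fold lower (95% counting interval 8.59–271, edgeR adjusted p = 0.00248). *Igfbp3*, a binding protein of insulin-like growth factors, was at 4.74 and 4.48 against 68.8 and 25.9 CPM (-2.99, edgeR adjusted p = 0.000594). These 3 genes were near the limit of detection in venous barcodes of both libraries. Though outside the list, *Fbln2* and *Col14a1* were high in arterial barcodes, some of which the comparison barcodes include. *Fbln2* was at 129 and 97.3 CPM there, against 14.1 and 11.4 in endothelial barcodes with fewer than 2 genes of either kind. *Col14a1* was at 48.5 and 83.4 against 13.8 and 12.5 CPM. Thinned before the rule, *Igfbp3* gave -0.56 (edgeR adjusted p = 0.797) and *Fbln2* -1.80 (edgeR adjusted p = 0.372), so neither passed, and without mixed barcodes *Igfbp3* gave -1.73 and *Col14a1* -2.30.

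*Slc26a10*, a member of a family of anion exchangers, was at 9.48 CPM in library 1 and 3.59 in library 2 against 77.7 and 78.7 (log2 fold change -3.25, SE 0.352, edgeR adjusted p = 0.000547). *Gm9946* (mm10 chr6:117559697-117572329, plus strand), an uncharacterised lincRNA, was at 7.90 and 9.86 against 44.7 and 95.6 CPM (-2.73, edgeR adjusted p = 0.000594). It starts 378.33 kb beyond the end of *Cxcl12* on the same strand, and both genes fell. *Rad54b*, a DNA repair helicase, was at 7.90 and 6.28 against 35.3 and 61.9 CPM (-2.45, edgeR adjusted p = 0.00148, and 0.0504 when thinned before the rule).

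*Meg3*, a long non-coding RNA that is abundant in neurons, was at 57.7 and 59.2 against 395 and 244 CPM (log2 fold change -2.38, edgeR adjusted p = 0.000154). Other neuronal markers fell with it, and the log2 fold change was -0.74 (edgeR adjusted p = 0.314) without barcodes holding 3 or more markers of another class. The part of neuronal RNA in this fall was not tested further.

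Genes of Notch signalling and arteriovenous fate moved in both directions, beside 2.02% of all genes higher and 1.83% lower. Of 17 tested, *Nr2f2* and *Nrp2* rose, *Efnb2*, *Hey1*, *Jag2* and *Sox17* fell, and the median was -0.10. The Notch ligand *Jag2* was at 110 and 86.1 CPM against 165 and 183 (log2 fold change -0.78, edgeR adjusted p = 0.0172). It did not pass with UMI totals matched (-0.54, edgeR adjusted p = 0.0844) or thinned before the rule (-0.40, edgeR adjusted p = 0.708), and *Sox17* did not pass with matched totals (-0.33, edgeR adjusted p = 0.224). The receptors *Notch1* and *Notch4* and the ligands *Dll4* and *Jag1* did not pass. Without mixed barcodes 2 of 16 rose and 5 fell, *Notch1* among the falls, with a median of -0.27. That stands beside 130 higher and 185 lower of all 6778 genes tested.

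The counts of the lists that follow also stand beside 2.02% of all genes higher and 1.83% lower. Among 17 genes of VEGF, Tie and TGF-beta signalling, *Nrp2* and *Kdr*, the main VEGF receptor (0.60, edgeR adjusted p = 0.0253), rose and none fell, with a median of 0.03. Among 13 genes of Wnt and β-catenin signalling, which maintains the blood–brain barrier, *Nkd1* (0.83), *Apcdd1* (0.72) and *Fzd4* (0.50) rose and none fell, with a median of 0.36. *Nkd1* and *Apcdd1* are feedback inhibitors of the pathway and *Fzd4* is a receptor. Thinned before the rule, none of the 13 Wnt genes passed in edgeR, with 1 at an unadjusted p under 0.05 and a median of 0.33, and *Apcdd1* did not pass without mixed barcodes (0.30, edgeR adjusted p = 0.274). *Nrp2* and *Kdr* did not pass when thinned either, nor *Kdr* without mixed barcodes. With UMI totals matched 3 of the 17 VEGF, Tie and TGF-beta genes rose and none fell, with a median of 0.33.

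Of 19 barrier transporters tested, 4 rose and 1 fell. The genes *Slc16a1*, *Slc7a5*, *Slc3a2* and *Slc22a8* rose, the taurine transporter *Slc6a6* fell and the median log2 fold change was 0.31. *Slc22a8*, the organic anion transporter OAT3, was at 475 CPM in library 1 and 546 in library 2 against 219 and 327 (log2 fold change 0.95, edgeR adjusted p = 0.00157, and 0.58 without mixed barcodes). The glucose transporter *Slc2a1* gave 4596 and 1868 against 3473 and 1688 CPM (0.31, edgeR adjusted p = 0.0971), so its libraries differed more than its groups. Of 12 junction genes, *Tjp1*, the scaffold ZO-1, rose (0.48, edgeR adjusted p = 0.0327) and VE-cadherin, *Cdh5*, gave 0.15 (edgeR adjusted p = 0.509), with a list median of 0.24. *Tjp1* did not pass when thinned before the rule (0.14, edgeR adjusted p = 0.859). With UMI totals matched 4 of 11 junction genes rose, *Tjp1* among them, and none fell, with a median of 0.39.

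With UMI totals matched between the groups, in 123 barcodes each in library 1 and 89 each in library 2, more transporters passed. There 11 of the 19 rose and 1 fell, with a median of 0.57, beside 263 higher and 359 lower of all 9887 genes tested. *Slc2a1* (0.59, edgeR adjusted p = 0.0035) and *Abcg2* (0.74, edgeR adjusted p = 0.00169) were among the transporters that rose. The venous list gave 8 rises of 10 and the arterial list 10 falls of 16 in that comparison, and neither had a change the other way. Thinned before the rule 2 of the 19 transporters rose and none fell (median 0.25), beside 56 higher and 50 lower of all 6944 genes tested. Without mixed barcodes 3 rose and 2 fell (median 0.12), beside 130 higher and 185 lower of 6778. *Abcg2* gave 0.11 (edgeR adjusted p = 0.87) and 0.12 (edgeR adjusted p = 0.744) there. *Slc7a5* lost its call in both settings (0.20 and 0.17), and *Slc3a2* (0.25) and *Slc6a6* (-0.41) when thinned.

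Immune and inflammatory genes outside the rule mostly did not pass. Of 8 genes of leukocyte adhesion and chemokines tested, the chemokine scavenger *Ackr3* rose (143 and 199 against 75.9 and 115 CPM, log2 fold change 0.87, edgeR adjusted p = 0.0041) and *Cxcl12*, its ligand, fell. Of 15 genes of NF-κB and cytokine response, *Il1r1* and *Csf1* rose, with a median of 0.48. *Csf1*, the growth factor of microglia and macrophages, was at 45.8 and 60.1 against 20.6 and 16.9 CPM (1.41, edgeR adjusted p = 0.0111). *Ccl2* and *Cxcl10* were at most at 5.53 CPM in the venous sums.

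Of 10 genes of class I antigen presentation, *H2-K1* rose (477 and 556 against 336 and 404 CPM, log2 fold change 0.51, edgeR adjusted p = 0.0199), while *H2-D1* (0.26) and *B2m* (0.28) did not pass, and the median was 0.29. With UMI totals matched 3 of the 10 rose and none fell, with a median of 0.46, and *H2-D1* passed (0.46, edgeR adjusted p = 0.0289). Of 12 haemostasis genes, *F5* and *Anxa2*, a cofactor of plasmin formation (0.91, edgeR adjusted p = 0.00654), rose, with a median of 0.34. Of 15 immediate early genes, which dissociation can induce, *Ier3* rose (0.57, edgeR adjusted p = 0.0402) and the median was 0.14. The calls of *H2-K1* (0.32 and 0.37) and *Ier3* (0.27 and 0.29) ended both without mixed barcodes and thinned before the rule. That of *Csf1* ended without mixed barcodes (1.16, edgeR adjusted p = 0.0819), and those of *Anxa2* (0.78, edgeR adjusted p = 0.0504) and *Ackr3* (0.25, edgeR adjusted p = 0.861) when thinned.

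**Figure D3:**
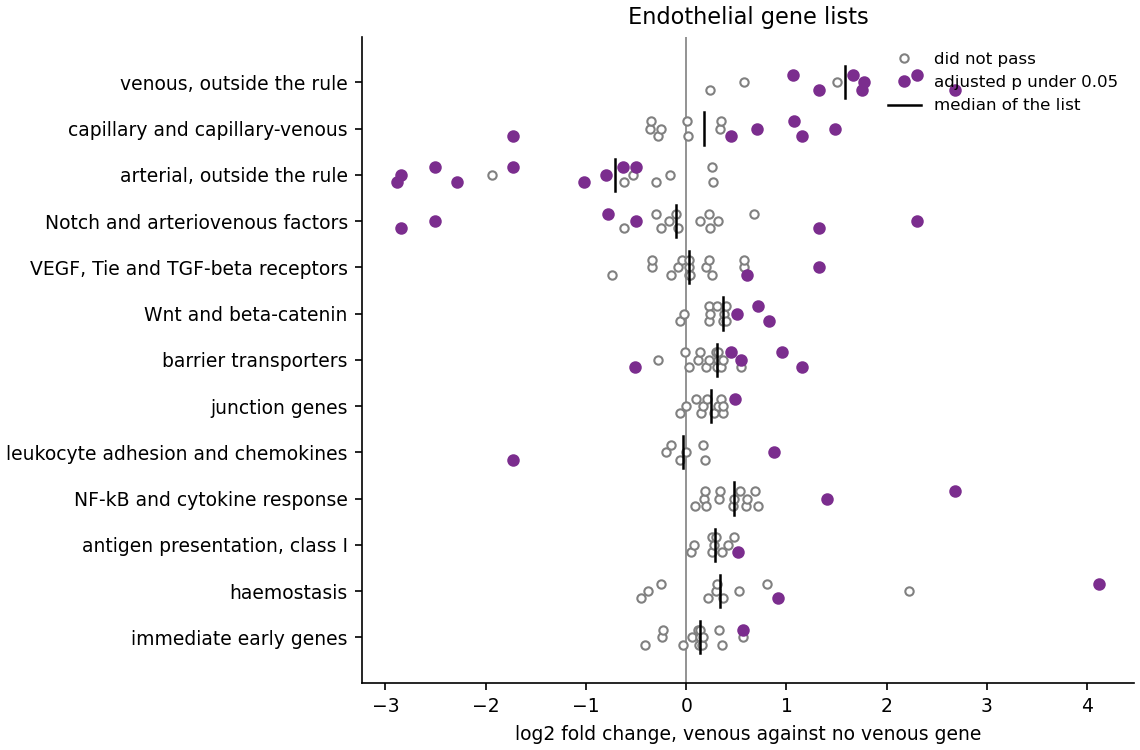
Log2 fold change of venous against comparison barcodes for each tested gene of 13 endothelial lists. Filled points passed at an adjusted p under 0.05, open points did not, and the black bar is the list's median, at 1.58 for venous genes outside the rule and -0.71 for arterial genes outside the rule. Vertical offsets only separate the points.

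The differences also showed as shares of barcodes at equal depth. After thinning, 129 venous barcodes of library 1 and 109 of library 2 remained, with 12 and 8 too shallow, against 215 and 146 comparison barcodes, with 217 and 106 too shallow. *F5* then had a UMI in 15.5% and 12.8% of venous barcodes against 0.465% and 0% of comparison barcodes, where 0 of 146 allows up to 2.05%. Unthinned, the shares were 25.5% and 28.2% against 1.16% and 0%. *Nr2f2* was found in 17.1% and 19.3% against 2.79% and 4.79% after thinning, and in 37.6% and 46.2% against 4.86% and 7.94% before.

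Abundant genes differed by more percentage points and by smaller ratios. *Tmsb10* had a UMI in 89.9% and 94.5% of thinned venous barcodes against 57.7% and 58.2%, and *Car4* in 89.9% and 87.2% against 51.2% and 54.1%. *Cxcl12* ran the other way, at 48.1% and 52.3% against 82.3% and 87.0%. Among low genes, *Hey1* was in 1.55% and 3.67% against 18.1% and 14.4%, and *Efnb2* in 0.775% and 2.75% against 11.6% and 10.96%. *Il1r1* stood apart in library 1, at 19.4% against 0.930%, and was near the level of single barcodes in library 2, with 4 of 109 (3.67%) against 3 of 146 (2.05%).

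**Figure D4:**
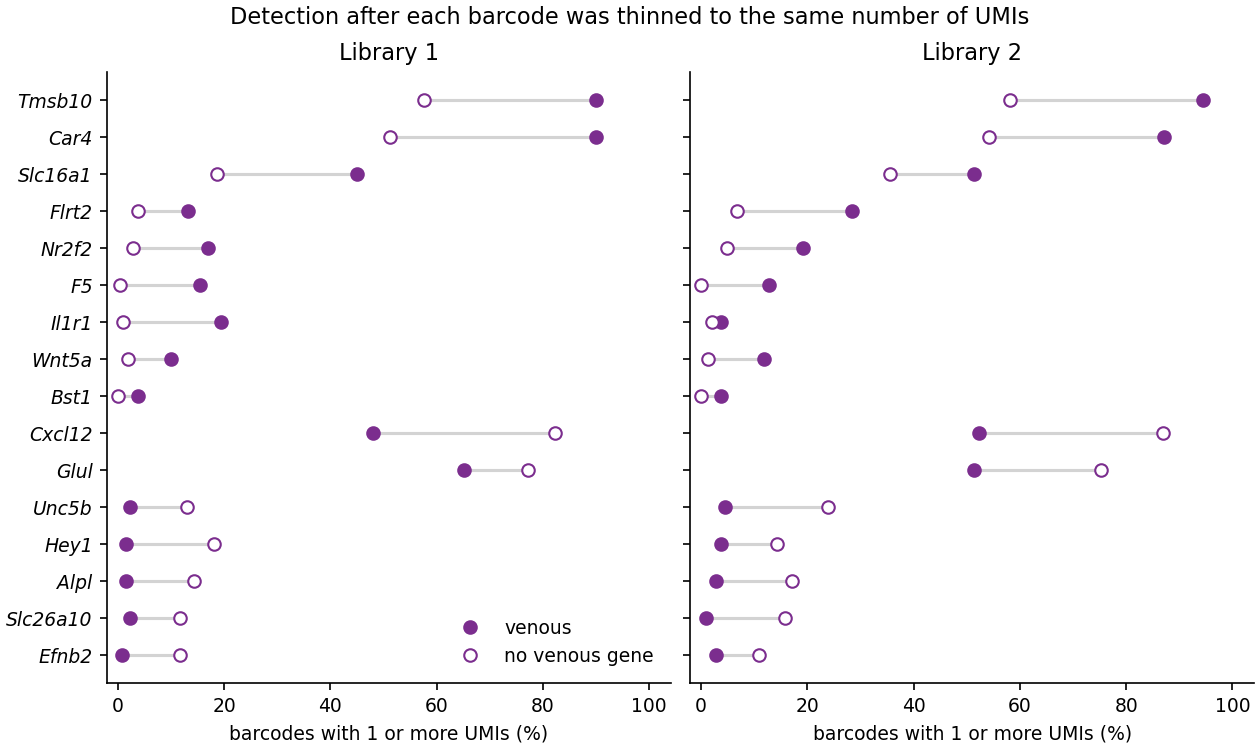
Percent of barcodes with at least 1 UMI of each gene after thinning to 2000 UMIs, in library 1 (left) and library 2 (right). Filled points are venous barcodes and open points comparison barcodes; *Tmsb10* and *Car4* lie at 87.2% or more in venous barcodes of both libraries, and *Cxcl12* lies at 82.3% or more in comparison barcodes.

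Levels changed stepwise with the number of venous genes in a barcode. Endothelial barcodes with fewer than 2 arterial genes were summed by whether they held 0, 1, 2 or at least 3 venous genes, which gave 399, 244, 103 and 38 barcodes in library 1 and 218, 251, 85 and 32 in library 2. *Cxcl12* fell along this series from 2575 through 1927 and 1036 to 360 CPM in library 1 and from 3340 through 2811 and 1159 to 384 in library 2. *Tmsb10* rose from 934 through 1360 and 2246 to 3091 CPM in library 1 and from 732 through 1588 and 2251 to 3147 in library 2. In both genes the order was the same in each library and the exact Poisson intervals of neighbouring steps did not overlap. Depth also rises with the number of venous genes, and with barcodes thinned before the genes were counted *Cxcl12* ran through 2901, 1538, 641 and 455 CPM in library 1 and 3470, 2662, 929 and 0 in library 2, where 4 barcodes held 3 or more. *Tmsb10* rose at each thinned step in both libraries. The intervals of the last thinned steps, with 11 and 4 barcodes at 3 or more venous genes, overlapped for *Tmsb10* in both libraries and for *Cxcl12* in library 1.

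The steps of other genes were less even. *Nr2f2* ran through 16.6, 85.4, 80.0 and 211 CPM in library 1 and 48.5, 77.0, 129 and 191 in library 2. Barcodes with 1 and with 2 venous genes had overlapping Poisson intervals for it in library 1 and not in library 2. *Car4* rose at each step in library 1, through 612, 1220, 1476 and 1706 CPM with intervals that did not overlap. In library 2 it stood at 684, 1327, 1294 and 1446 CPM, with overlapping intervals from 1 to 2 and from 2 to 3 or more venous genes. *Efnb2* was at 0 CPM (interval up to 7.15) in the 38 barcodes of library 1 with 3 or more venous genes and at 2.12 (up to 11.8) in the 32 of library 2. *Mfsd2a* was at 455, 590, 424 and 417 CPM in library 1 and at 454, 466, 297 and 274 in library 2. Its intervals at 0 and 1 venous genes overlapped in library 2, and in both libraries once barcodes were thinned.

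**Figure D5:**
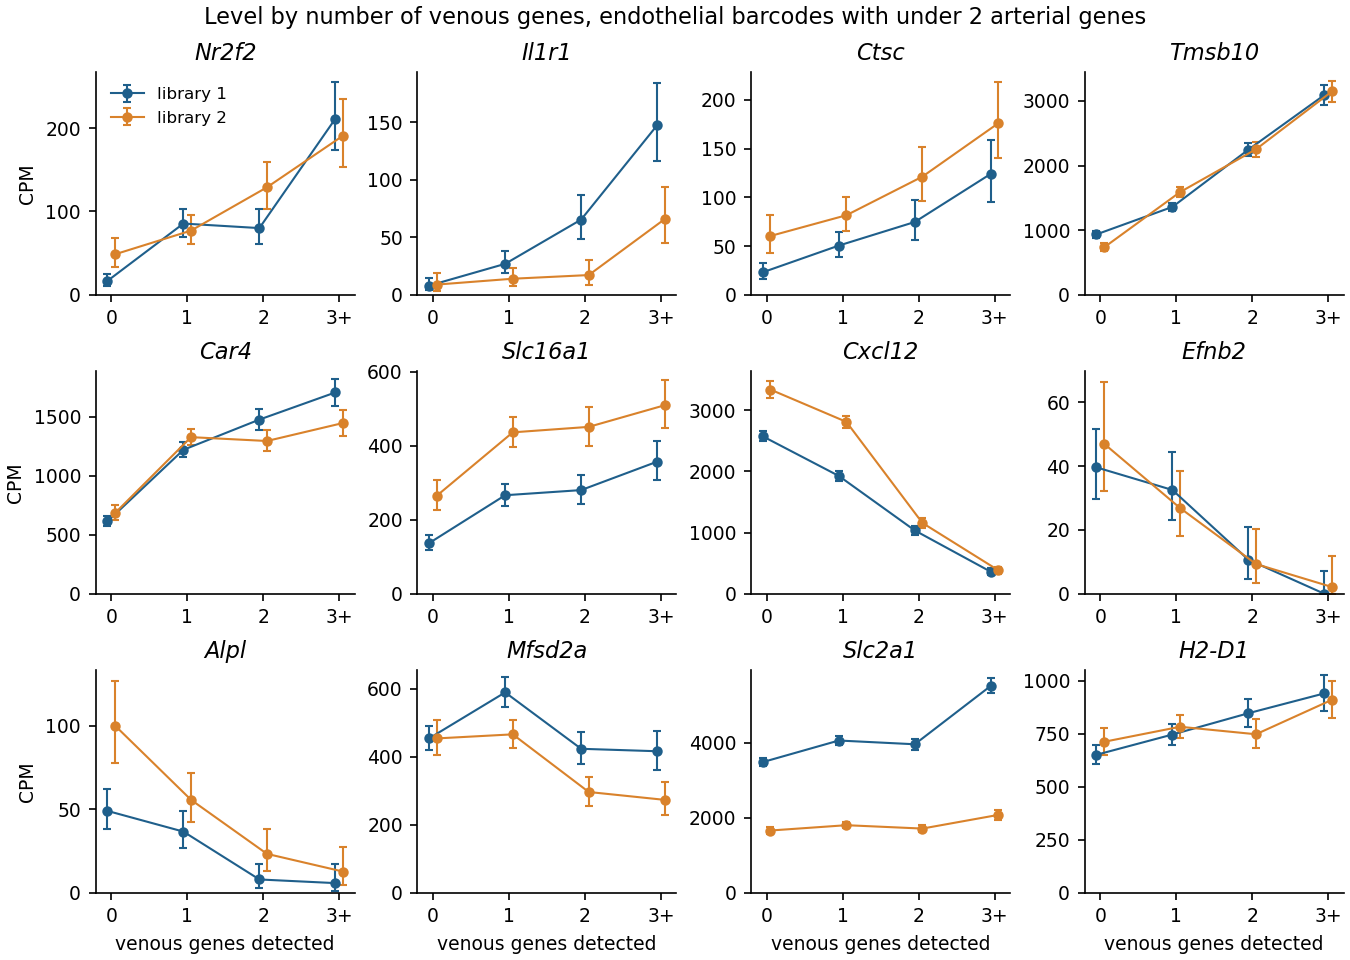
CPM of 12 genes (each panel with its own axis from 0) in endothelial barcodes with fewer than 2 arterial genes, by the number of venous genes detected, in library 1 (blue) and library 2 (orange). Bars are exact Poisson 95% intervals and cover counting error only. *Cxcl12* falls from 2575 to 360 CPM in library 1 and from 3340 to 384 in library 2.

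The venous barcodes were also set against the 127 arterial barcodes, 59 in library 1 and 68 in library 2, which were of like depth. Of 10452 genes tested, 372 were higher in venous barcodes and 382 lower (edgeR quasi-likelihood test, library as a block), that is 3.56% and 3.65%, or 7.21% either way. The venous barcodes are the same as above, so the comparisons are not independent. Without the library block 115 genes passed, and DESeq2 called 260. Arterial genes outside the rule were lower in 15 of 16 tested, with a median of -1.83, and venous genes were higher in 8 of 10, with a median of 1.66. Both groups were chosen by arterial and venous genes, so genes expressed together with those would differ in this direction by the choice alone. These counts are therefore a description of the groups.

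*F5* again stood first, with 180 UMIs over both venous sums against 1 UMI in the arterial sums, or 83.3-fold higher (95% counting interval 14.8–3307, edgeR adjusted p = 5.97e-08). *Fmo2*, a flavin monooxygenase, had 105 UMIs against 1 (48.6-fold, interval 8.53–1937, edgeR adjusted p = 7.66e-06). *Bst1* and *Adamtsl2*, a protein of the extracellular matrix, each had 54 UMIs against 0, which is at least 8.33-fold higher when 3 counts over both arterial sums are taken as the limit of a count of 0.

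The 5 largest falls against arterial barcodes held smooth muscle genes. *Acta2*, smooth muscle actin, was at 4.74 CPM in library 1 and 4.48 in library 2 against 361 and 377 (log2 fold change -5.87, edgeR adjusted p = 6.7e-13). *Myh11*, smooth muscle myosin, was at 4.74 and 3.59 against 137 and 308 (-5.17, edgeR adjusted p = 3.05e-11), and *Tagln*, transgelin, at 9.48 and 4.48 against 224 and 344 (-5.08, edgeR adjusted p = 2.78e-09). The arterial sums carried 4964 and 5544 CPM of the 10 mural markers, led by *Rgs5*, against 2519 and 3699 in venous sums, and the part of mural RNA in these falls was not tested. *Fbln2* (-4.94) and *Col14a1*, with 2 venous against 71 arterial UMIs, were the other two.

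Capillary-venous and transporter genes were higher in venous than in arterial barcodes in most tested members of the transporter list and in 7 of 14 of the capillary list, beside 3.56% of all genes higher and 3.65% lower. *Car4* was at 1569 and 1359 against 199 and 141 CPM (log2 fold change 3.14, edgeR adjusted p = 4.29e-12), and *Tfrc* at 414 and 336 against 120 and 145 (1.54, edgeR adjusted p = 4.88e-07). Without mixed barcodes *Car4* gave 5.63, and thinned before the rule *Car4* gave 5.11 and *Tfrc* 2.95. In the capillary list 3 genes were lower (median 0.68), and of 19 transporters 13 were higher and 1 lower (median 0.76). *Nr2f2* was higher too, at 133 and 155 against 43.5 and 71.5 CPM (1.38, edgeR adjusted p = 4.11e-05), and by 3.31 without mixed barcodes and 1.96 when thinned before the rule. *Cxcl12* was lower than in arterial barcodes too, with 1504 and 1907 CPM there (-1.04, edgeR adjusted p = 1.22e-06, and -1.60 without mixed barcodes).

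The other endothelial lists stand beside 3.56% of all genes higher and 3.65% lower against arterial barcodes. Notch and arteriovenous genes were higher in 2 and lower in 9 of 17 (median -0.47), VEGF, Tie and TGF-beta genes higher in 3 and lower in 2 of 17 (0.14), Wnt genes higher in 3 of 13 (0.23) and NF-κB and cytokine genes higher in 3 of 16 (0.62). Junction genes were higher in 2 of 12 (0.27), haemostasis genes higher in 2 and lower in 1 of 12 (0.30), and immediate early genes higher in 1 and lower in 1 of 15 (0.10). Of 8 adhesion and chemokine genes 1 was lower, *Cxcl12*, and none of 10 class I genes passed (median 0.04). The median of all genes tested was 0.0057.

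The venous barcodes were not uniform. Those with *Vwf*, 103 in library 1 and 96 in library 2, and those without it, 38 and 21, are compared here as values with no test, since *Vwf* is in the rule. *Il1r1* was at 123 and 44.9 CPM with *Vwf* and at 22.7 and 4.95 without, and *Tmsb10* at 2818 and 2855 with and 1884 and 1614 without. The barcodes without *Vwf* carried more glial RNA, with the astrocyte gene *Aldoc* at 419 and 733 CPM against 59.5 and 38.3 and the microglial gene *C1qa* at 893 and 332 against 269 and 20.8. The mural gene *Rgs5* was at 834 and 1153 CPM with *Vwf* and 520 and 1272 without. *Nr2f2* was at 144 and 169 CPM with *Vwf* and 101 and 94.1 without, while *Ctsc* was at 92.9 and 162 with and 101 and 64.4 without. In library 1 the Poisson intervals with and without *Vwf* overlapped for both genes.

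Barcodes with *Vcam1*, 32 in each library, had higher medians, of 10528 and 10322 UMIs, than those with *Vwf* or *Icam1*. *Nr2f2* was at 234 and 190 CPM in them against 84.6 and 130 in the venous barcodes without *Vcam1*, and *Cxcl12* at 388 and 374 against 942 and 1156. They too carried more *Aldoc*, at 294 and 344 CPM against 75.2 and 36.8. Barcodes with *Icam1*, 63 and 30, had *Nr2f2* at 172 and 178 CPM against 88.7 and 142 without. *Rgs5* was at 1032 and 966 CPM in them against 438 and 1296 without, and *C1qa* at 535 and 139 against 288 and 41.1.

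RNA of other cell types was present in many venous barcodes. In library 1, 89 of 141 (63.1%) and in library 2, 53 of 117 (45.3%) held 3 or more markers of another class, against 54.2% and 28.6% of comparison barcodes. Oligodendrocyte markers summed to 6000 and 6005 CPM, with 6 of 6 detected, against 9897 and 7168 in comparison barcodes. None of them passed in edgeR, with 1 at an unadjusted p under 0.05, while all 6 were lower with UMI totals matched (median -2.29) and 4 of 6 when thinned before the rule (median -1.84). Microglial markers summed to 1460 and 377 against 1261 and 1770 CPM, led by *C1qa* in library 1, with 7 of 7 detected and no call, so the libraries went opposite ways. Astrocyte markers summed to 722 and 907 against 765 and 625 CPM, led by *Slc1a2*, with no call of 6 in edgeR and 2 at an unadjusted p under 0.05. Thinned before the rule 2 of 6 rose, with a median of 0.87, and without mixed barcodes 2 of 3 tested fell.

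Mural markers summed to 2519 and 3699 CPM in venous against 1236 and 2825 in comparison barcodes, led by *Vtn* in the venous sums, with 10 of 10 detected. Of them *Vtn* (1.27, edgeR adjusted p = 0.0347) and the potassium channel *Kcnj8* (1.31, edgeR adjusted p = 0.0253) rose and *Acta2* (-1.81, edgeR adjusted p = 0.0253) fell, and *Vtn* turned to -0.89 without mixed barcodes. *Kcnj8* gave 0.27 with UMI totals matched (edgeR adjusted p = 0.735) and when thinned before the rule (edgeR adjusted p = 0.941), and with matched totals none of the 10 rose and 3 fell, with the median moving from 0.34 to -0.62. Border macrophage markers summed to 295 and 44.8 against 21.2 and 27.0 CPM, led by *Lyz2*, the 1 of 2 tested that rose, and *Cd163* and *Ms4a7* were at 0 in the venous sum of library 2. Neuroblast markers summed to 109 and 64.6 against 564 and 199 CPM, led by *Sox11* in venous barcodes, with 4 of 6 lower, and neuronal markers to 107 and 91.5 against 620 and 344, led by *Meg3*, with 4 of 6 lower. Erythroid markers summed to 11375 and 2881 against 17896 and 4747 CPM, led by *Hbb-bs*, which was lower (-0.68, edgeR adjusted p = 0.004). Its log2 fold change was -5.24 without mixed barcodes and -5.79 thinned before the rule, where all 4 erythroid markers tested were lower, and in library 2 a single venous barcode held 99.4% of its UMIs.

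Fibroblast markers summed to 149 and 49.3 against 30.0 and 34.9 CPM, led by *Dcn* in library 1 and *Pdgfra* in library 2, with no call of 6 and *Lum* and *Col1a1* at 0 in the venous sum of library 2. Lymphatic and fenestrated markers gave no call of 3 tested, with *Esm1* and *Ccl21a* at 0 in both venous sums. Against arterial barcodes all 7 microglial, 3 of 6 astrocyte and 3 of 6 oligodendrocyte markers were higher, and 7 of 10 mural, 5 of 6 neuroblast, 2 of 6 neuronal, 3 of 5 erythroid, 1 of 6 fibroblast and 1 of 3 lymphatic markers were lower, while 2 mural markers and 1 of 2 border macrophage markers were higher. The part of this RNA in the calls was not tested beyond leaving out the barcodes with 3 or more such markers. Of the 317 called genes that could then be tested, 177 remained called, *F5* (4.17), *Il1r1* (3.90), *Cxcl12* (-2.24) and *Hey1* (-3.54) among them, and 4 turned.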

How the data were processed

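Each library's deposited file holds raw UMI counts for 32285 genes in each barcode that the authors' pipeline called a cell, 6978 barcodes and 44597660 UMIs in library 1 and 5437 and 37982720 in library 2, with medians of 3852 and 5375 UMIs per barcode. The submitters' processing notes name Cell Ranger 4.0 and mm10, while the methods name another version of CellRanger, and which of them made these counts was not settled. Barcodes with at least 300 detected genes (6898 and 5364) were kept. Scrublet (scanpy 1.11.5, 6% of doublets expected) marked doublets, which were kept.

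The members, the 23 gene lists and the tests were chosen with earlier results of these data known. Since cells of a library are not replicates, UMIs were summed per library and group (Python 3.11.15; pandas 2.3.3, scipy 1.17.1, numpy 2.4.6). The 6 sums of each comparison (venous, comparison or arterial, and the remaining or 1-gene barcodes, which only share in the estimate of the spread) were fitted in R 4.3.3 with edgeR 4.0.16: filterByExpr, TMM factors, a prior count of 2, the quasi-likelihood test blocked by library, and Benjamini-Hochberg adjustment over all genes outside the 17 of the rule, at 0.05. The block follows from the design, because both groups of a library come from 1 suspension. With 2 residual degrees of freedom the test leans on the spread shared between genes. The SE is the size of the log2 fold change divided by the square root of its F value. The test across single cells that the methods name was not used.

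The genes named are the 10 largest rises and 10 largest falls against comparison barcodes and the 5 and 5 against arterial barcodes, among called genes with 1 direction in both libraries that reached 20 CPM in the higher group of both, plus genes of the lists marked for naming or with the largest called changes. The genes of the splits by *Vwf*, *Vcam1* and *Icam1*, and *Gm9946* as a neighbour of *Cxcl12*, were singled out after their values were seen. A few named genes are not reported here. Genes with at most 3 UMIs in a group are given as ratios of summed counts with exact intervals. Positions are from GENCODE vM21 on mm10.

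Barcodes with at least 4 markers of a class, 3 for fibroblasts, and of no other gave the levels in mural, microglial and astrocyte barcodes. Thinning drew 2000 UMIs from each barcode without replacement. On simulated counts of 10736 genes the fit against comparison barcodes recovered 64.2% of genes changed 2-fold, 80.6% of 3-fold and 86.4% of 4-fold changes with 13 false calls, and on 10468 genes the fit against arterial barcodes recovered 46.3%, 71.6% and 78.8% with 7. The simulated libraries differed only in size, and no choice by depth or difference in RNA of other cells was built in. Their spread was that estimated from these data, so the figures hold for such counts alone. Alternatives were DESeq2 1.42.0, library sizes alone, no block, no filter on genes, doublets or mixed barcodes left out, other minimums, thinning, matched UMI totals, the rule without each venous gene and other comparison groups. Matching together with leaving out mixed barcodes was added after seeing the data.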

Additional observations from a re-analysis of the deposited data

How the results depend on the processing

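Against comparison barcodes the 413 calls (217 higher, 196 lower) were 83 (41 and 42) with DESeq2, 16 (8 and 8) with no replicate block, 959 (404 and 555) with all counted genes tested, 163 (83 and 80) thinned after the rule, 106 (56 and 50) thinned before it, 622 (263 and 359) with UMI totals matched, 680 (352 and 328) with 3 or more venous genes, and 139 (74 and 65) with totals matched and mixed barcodes left out, a setting chosen after seeing the data. With the rule lacking *Slc38a5* they were 149 (86 and 63), lacking *Vwf* 180 (92 and 88) and lacking *Vcam1* 1644 (740 and 904). The lower calls were 323 without doublets, and the higher ones 130 without mixed barcodes and 137 against all other endothelial barcodes. Of the 413, 298 remained called of 402 tested with matched totals and none turned, while 66 remained of 330 and 23 turned when thinned before the rule. Without mixed barcodes 177 remained of 317 and 4 turned, and with totals matched as well 95 remained of 258 and 14 turned.

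Against arterial barcodes the 754 calls were 260 (132 and 128) with DESeq2, 115 (47 and 68) with no replicate block, 318 (147 and 171) without mixed barcodes, 223 (95 and 128) thinned after and 194 (92 higher, 102 lower) thinned before the rule, 383 (208 and 175) matched, 197 (90 and 107) matched without mixed barcodes, and 427 (232 and 195), 305 (133 and 172) and 472 (244 and 228) with the rule lacking *Slc38a5*, *Vwf* or *Icam1*. Lacking *Vcam1* they were 1132, of which 605 lower. With 3 or more venous genes they were 523 (260 and 263), and 30 of the 724 main calls tested there turned. Of the main calls tested, 22 of 749 turned lacking *Icam1*, 19 of 353 thinned before the rule and 18 of 522 without mixed barcodes. None of 680 turned with matched totals. The cause of these moves was not tested. Of 57 called genes followed one by one against comparison barcodes, 5 of 57 tested no longer passed with matched totals, 10 of 49 without mixed barcodes and 27 of 50 thinned before the rule. Those 27 included, of the largest changes, *Igfbp3* (-0.56, edgeR adjusted p = 0.797), *Lyz2* (0.94, 0.733), *Fbln2* (-1.80, 0.372), *Alpl* (-1.08, 0.315), *Wnt5a* (1.72, 0.0908) and *Rad54b* (-2.42, 0.0504), and of the lists *Nrp2*, *Prcp*, *Ackr3*, *Kdr*, *Nkd1*, *Apcdd1*, *Fzd4*, *Tjp1*, *Slc7a5*, *Slc3a2*, *Slc6a6*, *H2-K1*, *Ier3*, *Anxa2* and *Kcnj8*.

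The share of 16.7% was 17.8% with at least 500 genes, 17.7% with 5 endothelial genes, 4.53% with 3 venous genes, 10.7% thinned, 16.01% without doublets and 14.2% without mixed barcodes, and from 16.2% to 17.2% in single libraries. With 1 library no test is left. *Vtn* turned to -0.89 without mixed barcodes and -0.36 thinned before the rule, *Tfrc* to -0.064 without *Slc38a5* in the rule, *Cdh5* to -0.012 without *Vwf* and -0.15 matched without mixed barcodes, where *Ephb4* gave -0.039 and *Klf4* -0.13.

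Depth limits genes near 3 UMIs in a sum, and with 2 libraries the calls depend on the block.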

Other observations

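*Top2a*, the topoisomerase of dividing cells, had 2 UMIs in library 1 and 3 in library 2 of the venous sums against 154 and 13 in comparison barcodes (log2 fold change -3.71, edgeR adjusted p = 0.004). *Cenpf*, a kinetochore protein, had 3 and 2 against 89 and 10 (-3.19, edgeR adjusted p = 0.004). *Tyms*, which makes thymidylate for DNA synthesis, did not pass, with 10 UMIs in each venous sum against 29 and 14 (-0.87, edgeR adjusted p = 0.273). These 3 genes were picked after their values were seen. Neuroblast markers moved with them, at 109 and 64.6 summed CPM against 564 and 199, and without the barcodes that held 3 or more markers of another class the 3 genes were too low to test, so the part of neuroblast RNA was not tested.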
